A study of Mus musculus with 4 samples.

Results

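Sites where O-GlcNAc transferase (OGT) was detected on chromatin with neither of its companions were described in mouse bone marrow derived macrophages, primary phagocytes grown from marrow. A site counted as a lone OGT site when the OGT peak, on chromosomes 1 to 19, shared no base with a peak of the deubiquitinase BAP1 or of the cofactor HCF1. There were 1432 such peaks among the 10236 OGT peaks on these chromosomes, 14.0% (95% interval 13.3 to 14.7%), and 10337 OGT peaks on all sequences. The members were thus chosen by the measured peak positions in the 3 lists, and the absence of BAP1 and HCF1 is their definition and no finding.

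The series holds 4 samples from C57BL/6 mice, each a single library of cells that had no treatment beyond differentiation. BAP1 was precipitated through its tag with an anti-FLAG antibody from knock-in mice carrying BAP1-3X Flag. HCF1 and OGT were precipitated with antibodies to the proteins themselves from BAP1 WT mice, and the input, DNA without precipitation, also came from BAP1 WT mice. A lone OGT peak therefore lacked a BAP1 peak in cells of other mice than those in which OGT was mapped. The sources used here do not say how old the animals were, of which sex, or how many gave cells to each library. The labels name macrophages as the cell type but bone marrow progenitors as the source, and no expression values were analysed here to check the identity against marker genes. With 1 library per protein there is no spread between replicates. All intervals are exact Clopper-Pearson 95% intervals and cover counting error only, peaks of 1 library are not replicates, and no difference below was tested across libraries.

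As background, OGT attaches single N-acetylglucosamine residues to serine and threonine of nuclear and cytoplasmic proteins, and has no known DNA-binding domain, and it is thought to reach chromatin through partners. HCF1 is a known partner: it binds OGT, carries many of its modifications and is cut into its mature subunits in the active site of OGT. BAP1, which removes ubiquitin from histone H2A, binds HCF1 as well. OGT is also known to associate with the TET enzymes that oxidise methylated cytosine, a route to chromatin for which these libraries hold no measurement.

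Peaks are described by the width in bp and by the score that the authors deposited for each peak. No source used here defines the score. It was used to order and group peaks within the OGT list. It was also used to place the nearest BAP1 and HCF1 peaks within their own lists. In some alternatives it set a minimum for the OGT, BAP1 or HCF1 list. As the score is undefined, the same minimum need not mean the same in each list. The gap is the number of bases between the edges of a lone OGT peak and another peak. Positions are counted from 1 in mm9. No annotation or sequence of that build was used here, so regions are named by position and not by gene.

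Lone OGT peaks were mostly weak. Their scores ran from 50 to 1371.96, with quartiles of 53.9 and 76.7 and a median of 60.8. The median score was 67.0 in the 391 OGT peaks on BAP1 only, 81.3 in the 2016 on HCF1 only and 102 in the 6397 on both proteins. A score below 60 was found in 688 lone peaks, 48.0% (45.4 to 50.7%), against 33.2% (28.6 to 38.2%) on BAP1 only, 24.8% (22.9 to 26.7%) on HCF1 only and 14.3% (13.5 to 15.2%) on both. A score of 100 or more was reached by 202 lone peaks, 14.1% (12.3 to 16.0%), compared with 17.1% (13.5 to 21.2%) on BAP1 only, 35.2% (33.1 to 37.3%) on HCF1 only and 51.2% (49.9 to 52.4%) on both. The intervals of the lone class and the class on BAP1 only overlapped for a score of 100 or more but not for a score below 60. For both measures the lone class was clear of the classes on HCF1 only and on both.

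Read the other way, the share of OGT peaks that were alone fell with the score. It was 30.8% (28.9 to 32.8%) of the 2232 peaks scored 50 to 60 and 18.3% (16.7 to 19.9%) of the 2337 scored 60 to 80. It was 8.13% (6.76 to 9.67%) for scores of 80 to 100, 5.20% (4.39 to 6.11%) for 100 to 200, and 4.50% (3.44 to 5.77%) for 200 to 500. Of the 269 peaks scored over 500, 4 were alone, 1.49% (0.407 to 3.76%). The intervals of neighbouring bands did not meet up to the band of 100 to 200 and overlapped above it. Over the same bands the share of OGT peaks on both proteins went from 41.0% to 85.1%, while the share on HCF1 only went from 22.4% to 12.3%.

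**Figure D1:**
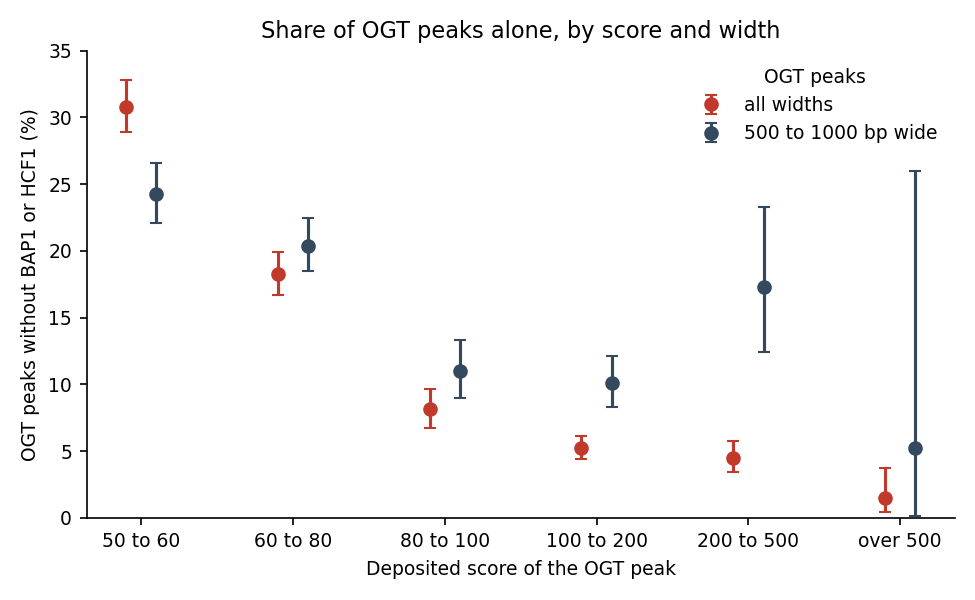
Share of OGT peaks without BAP1 or HCF1 (vertical axis, percent) in 6 bands of the deposited score (horizontal axis), for peaks of all widths and for those of 500 to 1000 bp; points are shares and bars exact 95% intervals. Over all widths the share runs from 30.8% to 1.49%, while among peaks of 500 to 1000 bp it is 24.3% at 50 to 60, 10.1% at 100 to 200, 17.3% at 200 to 500 and 5.26%, 1 of 19 peaks, over 500.

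Lone OGT peaks were also narrow. Their median width was 626 bp, with quartiles of 490 and 789 bp and extremes of 173 and 5066 bp. OGT peaks on BAP1 only had a median of 705 bp, those on HCF1 only 931 bp and those on both 1026 bp. Widths under 500 bp made up 27.1% (24.8 to 29.5%) of the lone peaks and 2.34% (1.99 to 2.75%) of the peaks on both proteins. A narrow peak has less room to share a base with another, so the rule itself favours narrow members. Of all OGT peaks under 500 bp, 57.4% (53.6 to 61.2%) were alone, compared with 11.6% (10.4 to 12.9%) at 750 to 1000 bp and 0.720% (0.384 to 1.23%) at 1500 bp or more.

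Width grew with score, with a Spearman rho of 0.56 across the 1432 lone peaks, which share a library. At a given score the lone peaks were still narrower than the OGT peaks on HCF1. For scores of 50 to 60 the median width was 518 bp in lone peaks, 620 bp on BAP1 only, and 703 bp both on HCF1 only and on both proteins. For scores of 100 to 200 these medians were 818, 808, 1163 and 1143 bp, and for 200 to 500 they were 918, 905, 1363 and 1611 bp. At scores of 80 to 500, lone peaks and peaks on BAP1 only differed in median width by far less than their quartile ranges, and the wider OGT peaks were those on HCF1. Over 500, the medians were 1126 bp for the 4 lone peaks and 896 bp for the 3 on BAP1 only. The classes on BAP1 only held 55 peaks at 100 to 200 and 9 at 200 to 500.

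**Figure D2:**
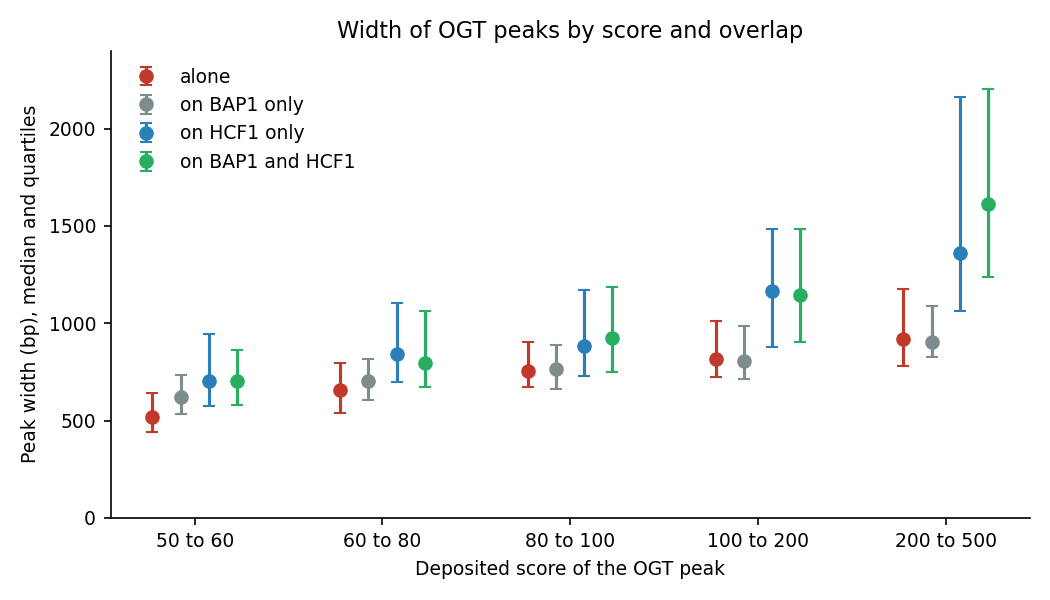
Width of OGT peaks in bp (vertical axis) in 5 bands of score (horizontal axis) for the 4 overlap classes; points are medians and bars run from the lower to the upper quartile. At scores of 200 to 500 the medians are 918 bp alone, 905 bp on BAP1 only, 1363 bp on HCF1 only and 1611 bp on both.

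Among peaks of like width the fall of the lone share with score was less regular. In OGT peaks of 500 to 1000 bp the share alone was 24.3% (22.1 to 26.6%) at scores of 50 to 60, 20.4% (18.5 to 22.5%) at 60 to 80, 96 of 873 peaks at 80 to 100 and 10.1% (8.30 to 12.1%) at 100 to 200. It was then higher again, at 17.3% (12.4 to 23.3%), for scores of 200 to 500, where 35 of 202 peaks were alone. This interval did not meet that of the band of 100 to 200, but it did meet that of 80 to 100, which reached 13.3%. Over 500 the share was 5.26% (0.133 to 26.0%), with 1 of 19 peaks alone, so no steady rise with score was seen. Within this width class lone peaks were the narrower ones, with a median of 786 bp against 880 bp for the others at scores of 200 to 500. The difference between the bands of 100 to 200 and 200 to 500 depended on the overlap rule. It stayed when any BAP1 or HCF1 peak within 250 bp of the edges counted as a partner. The shares were then 16.8% (11.9 to 22.7%) at 200 to 500 and 9.69% (7.94 to 11.7%) at 100 to 200. When a partner had to have its centre within 250 bp, the shares without one were 32.7% at 200 to 500 and 32.9% at 100 to 200, and with overlap of at least 50% of both peaks they were 31.2% and 36.2%. This width class was chosen after the widths had been seen.

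Lone OGT peaks lay at widely varying distances from the partner peaks. All other OGT peaks overlap a partner by the rule, so these gaps have no like value in the other classes. The gap to the nearest BAP1 or HCF1 peak had a median of 5.86 kb, quartiles of 1.49 and 18.8 kb, and ran from 1 bp to 3279 kb. A BAP1 or HCF1 peak was found within 1 kb of 281 lone peaks, 19.6% (17.6 to 21.8%), and within 10 kb of 890, 62.2% (59.6 to 64.7%). In 542 lone peaks, 37.8% (35.3 to 40.4%), the nearest was over 10 kb away, and in 66, 4.61% (3.58 to 5.83%), over 100 kb. Partner peaks stood within 10 kb on both sides of 335 lone peaks (23.4%) and on 1 side of 555 (38.8%).

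HCF1 was the nearer protein at 860 lone peaks, 60.1% (57.5 to 62.6%), and BAP1 at 572. HCF1 peaks made up 64.0% of all BAP1 and HCF1 peaks on these chromosomes. Of the autosomal BAP1 peaks 74.8% overlapped HCF1, and at such sites the nearer protein depends on the peak edges. The 64.0% is therefore not an expected value for how often HCF1 is nearer. The median gap was 6.99 kb to HCF1 and 12.4 kb to BAP1, whose list is shorter. Across lone peaks Spearman's rho between the gaps to the 2 proteins was 0.64, and both gaps are read against lists that overlap each other.

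The HCF1 peaks nearest to lone OGT sites overlapped OGT and BAP1 about as often as the rest of the HCF1 list. The nearest BAP1 peaks overlapped OGT more often than the whole BAP1 list did, but not where they lay over 10 kb away. Of the 1348 distinct HCF1 peaks that were nearest to a lone peak, 26.7% (24.4 to 29.2%) overlapped another OGT peak and 45.5% (42.8 to 48.2%) overlapped BAP1, compared with 26.8% and 47.7% of all autosomal HCF1 peaks. Their median score lay at the 47.5 percentile of the HCF1 list. HCF1 peaks within 1 kb of a lone OGT peak carried BAP1 less often, in 36.9% (30.8 to 43.3%) of 244. That interval did not meet the 47.2 to 48.3% of all autosomal HCF1 peaks. The members share no base with a BAP1 peak, so this share is not independent of how they were chosen. The 1305 distinct nearest BAP1 peaks overlapped another OGT peak in 39.3% (36.6 to 42.0%), against 35.4% (34.7 to 36.1%) of all autosomal BAP1 peaks, and HCF1 in 75.7% (73.3 to 78.0%) against 74.8% (74.1 to 75.4%). The 131 BAP1 peaks within 1 kb of a lone OGT peak carried another OGT peak in 49.6% (40.8 to 58.5%) and HCF1 in 83.2% (75.7 to 89.2%), both clear of the intervals of the whole BAP1 list. Their median score lay at the 59.1 percentile of that list, and that of all nearest BAP1 peaks at the 47.8 percentile. Of the 729 nearest BAP1 peaks over 10 kb away, 33.7% (30.3 to 37.3%) overlapped OGT and 73.3% (69.9 to 76.4%) HCF1. Both intervals met those of the whole BAP1 list. The members share no base with BAP1 or HCF1, so the shares near them are not independent of how they were chosen.

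The score of a lone peak bore no rank relation to its gap, with a Spearman rho of 0.00 over the 1432 peaks of this 1 library. The median score was 60.8 for gaps of up to 1 kb, 60.8 for 1 to 10 kb, 61.2 for 10 to 100 kb and 57.8 for over 100 kb. A score of 100 or more was found in 10.3% (7.02 to 14.5%) of the lone peaks within 1 kb and in 14.1% (11.5 to 17.1%) at 1 to 10 kb. It was found in 15.8% (12.6 to 19.3%) at 10 to 100 kb and in 18.2% (9.76 to 29.6%) of the 66 beyond 100 kb. This share rose over these groups, while the intervals of all groups overlapped. In narrower groups the rise was not steady. The share was 17.4% at gaps over 1000 to 2500 bp, 11.4% over 5000 to 10000 bp and 19.1% over 25000 to 50000 bp. Peaks that share a base with a partner are left out by the rule, so the share depends in part on it. The remotest peaks were narrower, with a median of 514 bp beyond 100 kb and 657 bp within 1 kb.

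**Figure D3:**
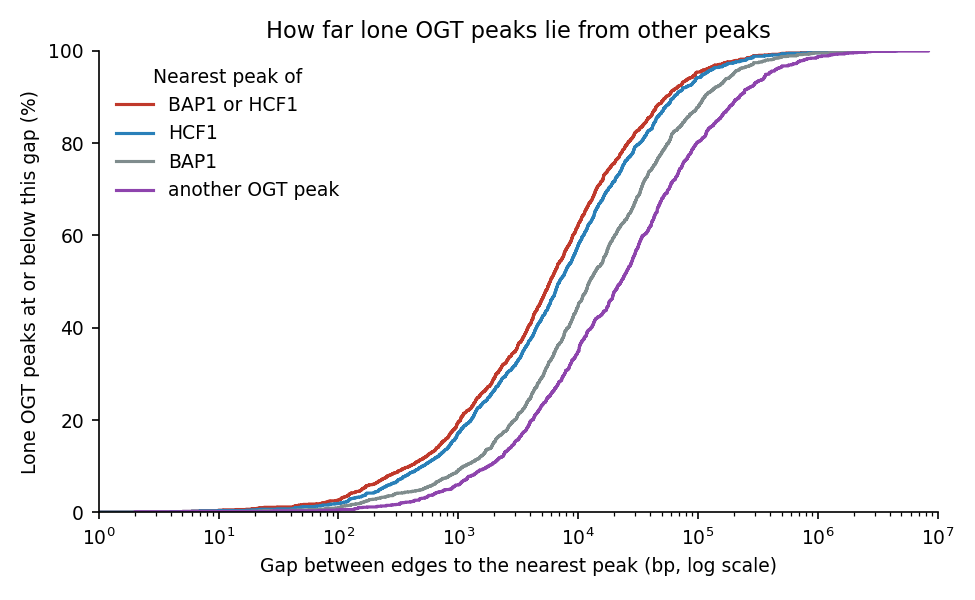
Share of lone OGT peaks (vertical axis, percent) with a gap at or below the value on the horizontal axis (bp, log scale) to the nearest BAP1 or HCF1 peak, HCF1 peak, BAP1 peak or other OGT peak. The medians are 5.86 kb to BAP1 or HCF1, 6.99 kb to HCF1, 12.4 kb to BAP1 and 22.9 kb to another OGT peak.

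The surroundings of lone OGT peaks held fewer HCF1 peaks. Within 50 kb of the edges, not counting peaks that overlap the OGT peak itself, there were on average 5.30 HCF1 peaks around lone peaks, 6.61 around those on BAP1 only, 7.83 around those on HCF1 only and 7.11 around those on both. No HCF1 peak stood within 50 kb of 189 lone peaks, 13.2% (11.5 to 15.1%), compared with 5.50% (4.96 to 6.09%) of the OGT peaks on both proteins. With the 10 kb next to the peak left out, the shares with none were 19.3% (17.3 to 21.4%) and 10.8% (10.1 to 11.6%), and the averages 3.89 and 5.04. The strong lone peaks were no exception: at scores of 100 to 200 they had on average 4.38 HCF1 peaks within 50 kb. The averages in that band were 6.24 on BAP1 only, 8.03 on HCF1 only and 7.16 on both. At scores of 80 to 100, lone peaks averaged 5.56 and the 49 peaks on BAP1 only 5.06. In the other bands up to 500 the average was lower for lone peaks than for those on BAP1 only. A neighbourhood with few HCF1 peaks also offers fewer that could overlap, so this measure is not independent of how the members were chosen.

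For BAP1 the contrast was with peaks that carried BAP1. On average 2.77 BAP1 peaks lay within 50 kb of a lone OGT peak, 2.91 of one on HCF1 only, 3.82 of one on BAP1 only and 3.72 of one on both. Lone peaks still lacked any BAP1 neighbour more often than peaks on HCF1 only, in 317 of 1432 cases (22.1%) against 329 of 2016 (16.3%), by intervals that did not meet.

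**Figure D4:**
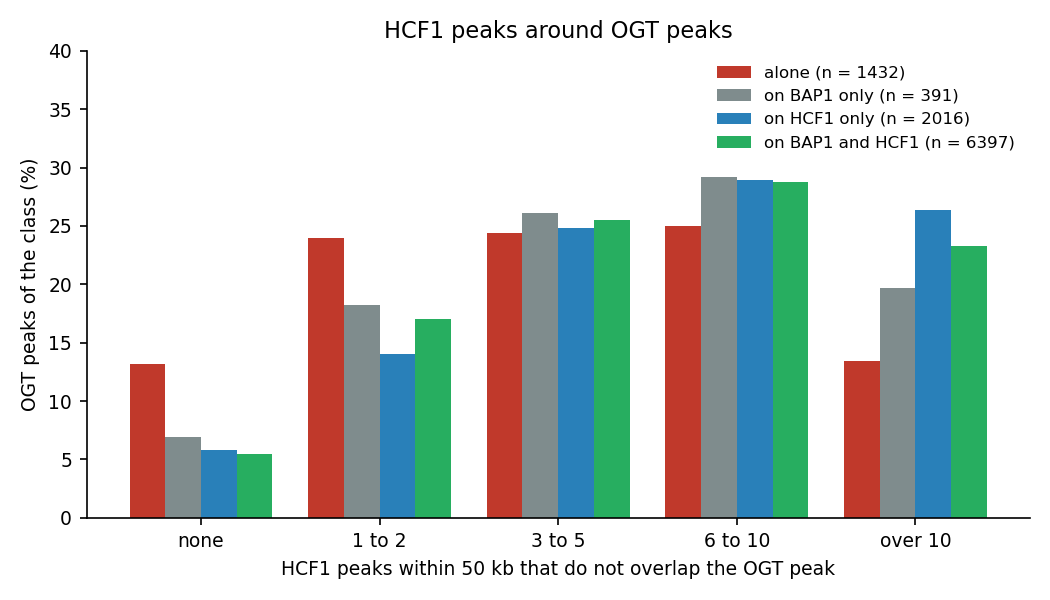
Share of OGT peaks of each overlap class (vertical axis, percent; bars start at 0) by the number of HCF1 peaks within 50 kb that do not overlap the OGT peak (horizontal axis). Lone peaks have none in 13.2% and over 10 in 13.4%, while those on both proteins have none in 5.50% and over 10 in 23.3%.

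Lone OGT peaks were also apart from other OGT peaks. Another OGT peak was found within 10 kb of 498 lone peaks, 34.8% (32.3 to 37.3%), compared with 42.5% (37.5 to 47.5%) of those on BAP1 only, 53.9% (51.7 to 56.1%) on HCF1 only and 53.3% (52.1 to 54.5%) on both. Within 1 kb the shares were 5.94% alone, 22.4% on HCF1 only and 26.8% on both, and 47 of the 391 peaks on BAP1 only had such a neighbour. Where a lone peak had another OGT peak within 10 kb, that neighbour was itself alone in 93 of 498 cases, 18.7% (15.3 to 22.4%), and lay on both proteins in 278, 55.8% (51.3 to 60.2%). In the whole OGT list 14.0% (13.3 to 14.7%) were alone and 6397 of 10236 lay on both. Another lone peak stood within 10 kb of 119 lone peaks, 8.31% (6.93 to 9.86%). Lone peaks that neighbour each other can each be counted, both in the 93 and in the 119. The intervals treat such cases as separate, so they are too narrow to set the 18.7% apart from the 14.0%. A neighbour of the same class was found for 6.91% (4.60 to 9.89%) of peaks on BAP1 only, 27.2% on HCF1 only and 43.8% on both. These classes hold 391, 2016 and 6397 peaks, and a smaller class offers fewer such neighbours.

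Most lone peaks did not directly follow one another. Along the chromosomes 1255 lone peaks stood by themselves, while 177 formed 86 runs in which no other OGT peak and no BAP1 or HCF1 peak came between. Of these runs 83 were pairs, 1 held 3 peaks and 2 held 4. A run is broken by any of the far more numerous other peaks and has no limit of length. These counts therefore do not show whether lone peaks lie in groups. One run of 4, on chromosome 13 from 3779660 to 3821813, began with 3 peaks separated by only 2 and 147 bp. The first of these, 3779660 to 3780441, scored 220.91 and lay 118 bp from an HCF1 peak. The second, 3780444 to 3781396, scored 67.38, and the third, 3781544 to 3782271, scored 314.25. The fourth, 3821366 to 3821813, scored 51.58 and lay 39.1 kb from the third. The nearest BAP1 peak was over 100 kb from each of the 4.

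In windows of 1 Mb, 801 held a lone peak and 443 of these held 1. The window with most, on chromosome 7 from 87000001 to 88000000, held 9 lone peaks among 38 OGT, 80 HCF1 and 42 BAP1 peaks. Those 9 scored between 50.48 and 149.67, and each lay within 8.57 kb of a BAP1 or HCF1 peak. The window that came next, on chromosome 5 from 121000001 to 122000000, held 8 lone peaks among 29 OGT and 61 HCF1 peaks. The windows richest in lone peaks were thus rich in peaks of all 3 proteins.

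The share of OGT peaks that were alone was similar on most chromosomes. It ranged from 9.71% (6.93 to 13.1%) on chromosome 19, with 37 of 381, to 17.0% (14.0 to 20.3%) on chromosome 8, with 97 of 572. Chromosome 13 followed with 16.8% (13.2 to 21.0%) and chromosome 15 with 16.3% (12.9 to 20.1%). The intervals of chromosome 19 and chromosome 8 did not meet, and chromosome 19 was the only one of the 19 whose interval lay wholly below the share over all chromosomes. Across the 19 chromosomes, lone peaks per Mb followed the density of all OGT peaks, of which they are a part, with a Pearson r of 0.88 and a Spearman rho of 0.89, and the density of HCF1 peaks with an r of 0.81 and a rho of 0.85. Without chromosomes 11 and 19, the farthest from the median of either density, r was 0.90 for both. Chromosome 19 had 21.4 HCF1 peaks but only 0.637 lone OGT peaks per Mb. The share alone had an r of -0.52 with HCF1 density, which was -0.05 without those 2 chromosomes and so rested on them. The chromosomes share their libraries and these coefficients are descriptions.

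**Figure D5:**
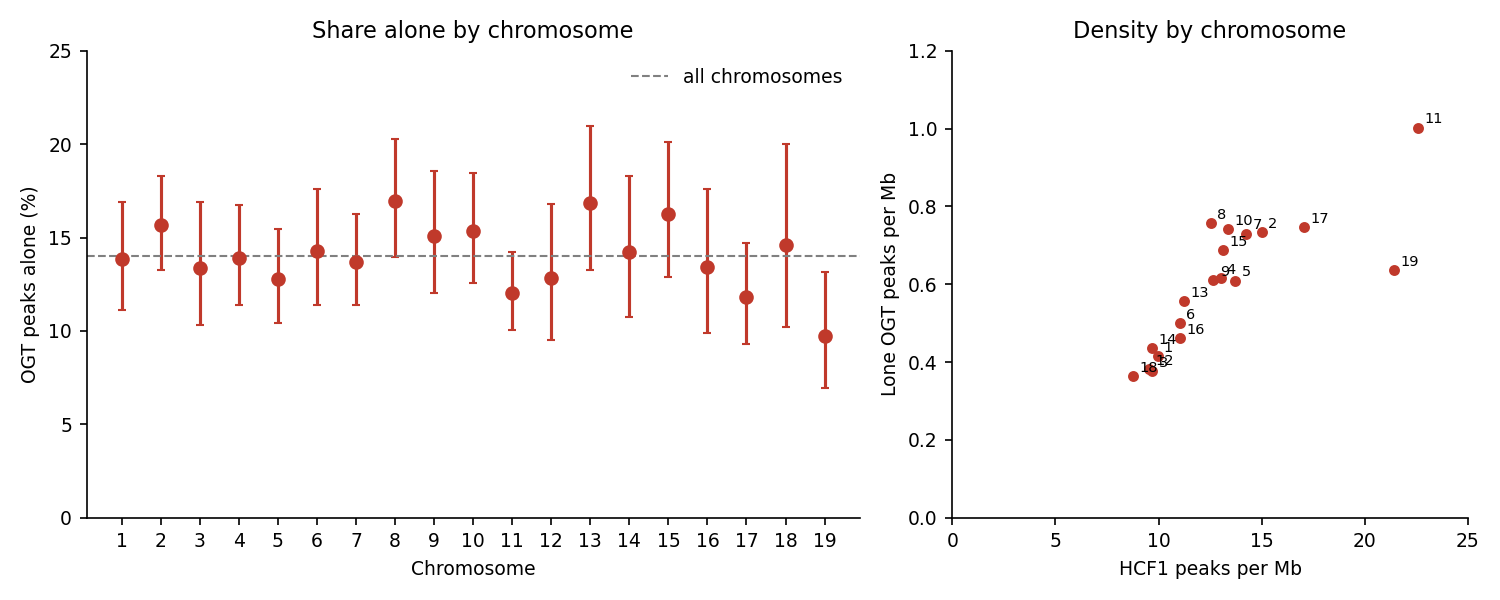
Left, share of OGT peaks alone (vertical axis, percent, with exact 95% intervals) on each of chromosomes 1 to 19, with the dashed line at the 14.0% over all; right, lone OGT peaks per Mb (vertical axis) against HCF1 peaks per Mb (horizontal axis), 1 labelled point per chromosome. Chromosome 19 is lowest at 9.71% and chromosome 8 highest at 17.0%, and chromosome 11 has the most lone peaks per Mb.

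The strongest lone peaks were wider than lone peaks in general, with a median of 1050 bp for the 10 highest scores against 626 bp. Any strong peak that shares a base with a partner is left out by the rule, so their widths and gaps depend in part on it. The 10 with the highest scores lay on 8 chromosomes, were 735 to 1380 bp wide and had gaps of 4103 bp to 255 kb to the nearest BAP1 or HCF1 peak. None had a partner within 1 kb and 7 were over 10 kb from any. By score they ranked between 30 and 464 among the 10236 OGT peaks. The first, on chromosome 6 from 89017974 to 89019122, scored 1371.96. It lay 17.0 kb from BAP1 and 59.9 kb from HCF1, with another lone OGT peak 2387 bp away. The second, on chromosome 8 from 109224481 to 109225860, scored 634.57, with BAP1 16.7 kb and HCF1 16.9 kb away and no other OGT peak within 122886 bp.

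The third, on chromosome 10 from 13768021 to 13768822, scored 563.63 and was 802 bp wide, with HCF1 11.6 kb away. The fourth, on chromosome 17 from 79746294 to 79747396, scored 523.5 with HCF1 6.12 kb and BAP1 94.2 kb away. The fifth, on chromosome 3 from 51821479 to 51822677, scored 486.29 with HCF1 5.90 kb away. HCF1 was the nearer partner of these 3. The sixth, on chromosome 13 from 101897581 to 101898315, was the most remote of the 10: it scored 431.1 over 735 bp and had no peak of BAP1, HCF1 or OGT within 255 kb. The seventh, on chromosome 3 from 145914601 to 145915386, scored 405.08 and had none of them within 73.1 kb.

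The eighth, on chromosome 16 from 24076132 to 24077128, scored 402.79 with HCF1 25.8 kb away. The ninth, on chromosome 6 from 124454951 to 124455945, scored 401.13 with BAP1 11.3 kb and HCF1 11.6 kb away. The tenth, on chromosome 12 from 112424629 to 112425797, scored 397.62 and had an HCF1 peak at 4.10 kb and an OGT peak on HCF1 at 3.95 kb. Of these 10, 2 therefore had another OGT peak within 10 kb. Widening the view to the 63 lone peaks scored 200 or more, which lay on 18 chromosomes, the median width was 926 bp and the median gap 7808 bp. Among these 63, 8 had a partner within 1 kb and 29 had none within 10 kb.

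The remotest lone peaks were mostly weak. The farthest, on chromosome 14 from 91096563 to 91097091, scored 50.01, close to the lowest score in the list, and lay 3279 kb from HCF1, 3280 kb from BAP1 and 8411 kb from any other OGT peak. On chromosome 7, the peak from 78228828 to 78229221 scored 55.31 at 2334 kb, and the one from 101995982 to 101996154, the narrowest lone peak at 173 bp, scored 58.35 at 1866 kb. The peak on chromosome 3 from 70905245 to 70905653 scored 52.4 at 1379 kb. The fifth of them differed: on chromosome 15 from 19787030 to 19787972, it scored 232.51 over 943 bp, with BAP1 1257 kb and HCF1 4576 kb away. Its nearest OGT peak, also 1257 kb away, lay on BAP1 only.

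Wide lone peaks were exceptional. The widest, on chromosome 1 from 90143394 to 90148459, spanned 5066 bp with a score of only 56.38. The next 4 were 2251, 2186, 1773 and 1752 bp wide and scored between 132.64 and 292.2. They lay on chromosome 7 from 149647118 to 149649368, chromosome 4 from 119649201 to 119651386, chromosome 17 from 45883331 to 45885103 and chromosome 8 from 117831021 to 117832772. Their gaps to the nearest partner were 2.83, 8.96, 2.65 and 1.46 kb.

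Some members met the rule by a few bases. On chromosome 14, the lone peak from 21538700 to 21539113 scored 62.34 and lay 1 bp from an HCF1 peak. The 4 next closest had gaps of 4, 5, 6 and 7 bp, all to HCF1, and one of them, on chromosome 10 from 79607995 to 79608914, scored 148.29. Just outside the rule, an OGT peak on chromosome 10, from 20492804 to 20493470, scored 60.16 and shared 4 bp with an HCF1 peak, and the 4 next shared 7, 14, 15 and 15 bp with HCF1 or BAP1. In all, 38 lone peaks (2.65%) had a partner within 100 bp and 109 (7.61%) within 250 bp.

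A margin around the peaks changed the members little, while the choice of partner peaks changed them more. Counting any BAP1 or HCF1 peak within 250 bp as a partner left 1323 lone peaks. Limiting BAP1 and HCF1 to peaks scored 100 or more gave 2474, which included the 1432. The others overlapped only partner peaks scored below 100. Requiring a score of 100 or more in all 3 lists gave 475 lone peaks, of which 202 were members. The score minimum in each list was 50 for OGT and HCF1 and 50.01 for BAP1, the read depth behind the lists is unknown, and a partner bound below that minimum would not be listed.

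By the same rule, 4076 of 17389 autosomal BAP1 peaks, 23.4% (22.8 to 24.1%), and 14111 of 30912 HCF1 peaks, 45.6% (45.1 to 46.2%), overlapped neither other list. OGT had the smallest share alone of the 3 proteins. The lists differ in length, and a shorter list set against longer ones has fewer peaks left alone, so these shares do not rank how independently the proteins bind.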

How the data were processed

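Chromatin immunoprecipitation with sequencing was done on 1 library each for BAP1, HCF1 and OGT, with 1 input. Per the labels' protocols, fragments of 175 to 225 bp were selected on a gel and amplified for 18 PCR cycles. Reads were handled with GSNAP and MACS 1.4 on mm9, per the submitters' processing notes. The authors deposited 1 peak list per protein, giving start and end positions and a score per peak. Settings and read totals were not given in the sources used here.

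Deposited starts were read as counted from 0. Overlap meant at least 1 shared bp. Gaps and overlaps were computed in Python 3.11.15 with pandas 2.3.3 and scipy 1.17.1, tested on simulated data, and checked with bedtools 2.31.1, which gave the same members. Regions were named by rule: the 10 highest scores, the 5 remotest, widest, and nearest the rule on either side, the 1 Mb window with most members, and the longest run. The alternatives changed overlap, width, score minimum, chromosomes and joining. Position relative to genes and sequence were planned but not run, because the gene tables used here are of another build (GRCm38). The members, lists and bands were chosen with earlier results of these data known.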

Additional observations from a re-analysis of the deposited data

Results flagged for a closer look

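The X chromosome lies outside the rule. It held 13 lone OGT peaks among its 75 OGT peaks, 17.3% (9.57 to 27.8%), which was singled out because it is a signal in data that the comparisons leave out and is above the 3 counts that a count of 0 allows. The interval includes the 14.0% of chromosomes 1 to 19. On unplaced sequences 3 of 25 OGT peaks were alone, and on Y none of 1.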

How the results depend on the processing

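The number of lone OGT peaks depended on how a partner was defined. It was 1432 in the report, 4424 when a partner needed its centre within 250 bp, 3808 with overlap of at least 50% of both peaks and 5041 with peaks trimmed to 200 bp, and each of these 3 sets included the 1432. It was 475 with a score of at least 100 in all lists, 202 with that minimum in the OGT list and 2474 with it in the BAP1 and HCF1 lists. It stayed within 1.5 times with a 250 bp margin (1323), joined OGT peaks (1359) or all sequences (1448). The share within 10 kb of a partner, 62.2%, was 56.9% for OGT scores of at least 100, 45.5% for such scores in all lists and 59.0% with the margin. The median score of 60.8 was 76.2 with centres and 78.2 with trimmed peaks. The median width of 626 bp was 848 bp with centres and also 848 bp for scores of at least 100. The share within 10 kb of another lone peak, 8.31%, was 2.97% for scores of at least 100, 5.73% at 5 kb and 23.2% at 50 kb. Among peaks of 500 to 1000 bp scored 200 to 500 the share alone, 17.3%, was 32.7% with centres and 31.2% with 50% overlap, alternatives added after seeing the data. The looser sets follow from the stricter demand on a partner; the cause of the other changes was not tested. Depth is unknown, so a partner missing from a list may still be bound. Nor can 1 OGT library show which lone peaks, 48.0% of them scored below 60, would recur in a second. No paired analysis was possible because no group has a second library.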
